A study of Mus musculus with 12 samples.

Results

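Ovariectomy 2 weeks before a spinal cord injury was compared with the same injury alone, across all genes. The comparison uses 8 of the 12 libraries of the series, 4 labelled SCI7 and 4 labelled OVX2_SCI7, chosen by their labels. All came from female wild-type C57BL/6J mice whose cord was compressed with a clip at T9-T10, and the tissue, lesion plus about 0.5 cm of cord on either side, was taken 7 days later. SCI7 mice had the injury and no ovariectomy. OVX2_SCI7 mice lost their ovaries 2 weeks before it. The other 4 libraries, labelled OVX8_SCI7, had ovariectomy 8 weeks before the injury. They are not compared here, but they enter the low-count filter, the scaling, the estimate of spread and the offset described below. The series holds no sham-operated and no uninjured mouse, so hormone loss, the earlier operation and the age at injury cannot be told apart. The title of the series calls ovariectomy a model of osteoporosis, and the labels name all samples biological replicates of 1 batch. Every label gives an age of 8 weeks without saying at which step.

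Ovaries are the main source of circulating oestradiol and progesterone, steroids that act through nuclear receptors present in neurons, glia, vessels and leukocytes. A week after compression, a cord lesion holds microglia and blood-derived macrophages that take up myelin debris, astrocytes that wall off the damage, and fibroblast-lineage cells that deposit a collagen scar. Oligodendrocytes and neurons are lost at the centre and persist in the margins. These are bulk libraries, in which fewer cells of a type and less RNA per cell cannot be told apart.

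The tissue label held in all 8 libraries. Glial fibrillary acidic protein (Gfap, astrocytes) stood at 3495, 3784, 3564 and 3912 TPM, a length-scaled transcript level, in SCI7 and 4481, 6103, 2261 and 3892 TPM in OVX2_SCI7, and myelin basic protein (Mbp) at 7306 to 20140.0 TPM. The libraries held 18222768 to 20524306 counts, so that 3 counts, the floor used here, equal 0.146 to 0.165 CPM, which are counts scaled to library size. Below, a level is in CPM scaled by TMM, values are listed by replicate number from 1 to 4, and a difference is the log2 ratio of OVX2_SCI7 to SCI7, with its standard error where a ± follows.

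Libraries within a group differed widely, and 4 stood apart in ways that touch the results. As TMM-scaled, OVX2_SCI7 replicate 1 lay nearer to SCI7 than to its own group. Its root mean square distance over all genes tested was 0.740 log2 units from the SCI7 libraries on average and 1.04 from the other OVX2_SCI7 libraries. For replicates 2, 3 and 4 the distance to SCI7 was 0.927, 1.097 and 0.928, and that to their own group 0.866, 0.969 and 0.817. With the GC and length offset described below, replicate 2 also lay nearer to SCI7, at 0.751 against 0.807, as did replicate 1, at 0.728 against 0.933, and replicates 3 and 4 were about equidistant, at 0.949 against 0.932 and 0.788 against 0.7801. OVX2_SCI7 replicate 2 held transcripts of sensory ganglion neurons, replicate 3 held the most collagen RNA and little neuronal RNA, and SCI7 replicate 3 held the least macrophage, collagen and cell division RNA of its group. Their values are given with the gene classes below.

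No gene passed at an adjusted p of 0.05 by edgeR's quasi-likelihood test, fitted over all 12 libraries, with Benjamini-Hochberg adjustment over 17821 genes tested, 0% in either direction, and the smallest adjusted p was 0.052. Yet 5789 genes had an unadjusted p under 0.05, 3114 of them higher and 2675 lower after ovariectomy. The smallest adjusted value, just above the threshold, was shared by many genes, among them Oas2, Acsl4, Rhbdl2 and Itgav. The count of 0 therefore does not show that the groups are alike. Of the other tools run on the same genes, DESeq2 called 3706, limma-voom 705, limma-trend on log2(TPM + 1) 16 and limma-voom with quality weights 9679, so the count depended on the tool. Leaving out OVX2_SCI7 replicate 1, quasi-likelihood called 6264 genes, 3080 higher and 3184 lower. That library lay nearest to SCI7 of its group, so leaving it out widens the contrast, and the count is no support. Leaving out replicate 2, 3 or 4 of OVX2_SCI7 instead gave 0. A second, simpler description is whether the 4 libraries of one group all lie outside the range of the 4 of the other. By that count 1091 genes (6.12%) were higher in every OVX2_SCI7 library than in any SCI7 library and 1123 (6.3%) were lower. A list of genes is described below by how many of its tested members separate in this way and by its median difference, beside a median of 0.04 over all genes tested.

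The differences followed the base composition of the transcripts. Spearman's rho of the difference on GC content was 0.788 over 15087 coding genes, and it was -0.32 on transcript length. Genes share libraries, so these are descriptions without a p. With those genes in 5 equal groups by GC content, the median difference went from -0.56 in the most AT-rich to -0.24, 0.06, 0.35 and 0.60 in the most GC-rich. Genes below SCI7 in every library made up 22.7% of the most AT-rich group and 0.0331% of the most GC-rich, and genes above made up 0.265% and 16.5%. Each library has such a trend of its own against the mean of the 8. Its rho was -0.68, -0.73, -0.41 and -0.28 in SCI7 and -0.28, 0.69, 0.47 and 0.59 in OVX2_SCI7, so the groups did not overlap, although OVX2_SCI7 replicate 1 and SCI7 replicate 4 were almost level. The difference of the means was 0.893 (two-sided exact permutation p = 0.0286, the smallest that 4 against 4 allows, and 0.114 adjusted over 4 library measures). What lies behind the trend was not tested.

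**Figure D1:**
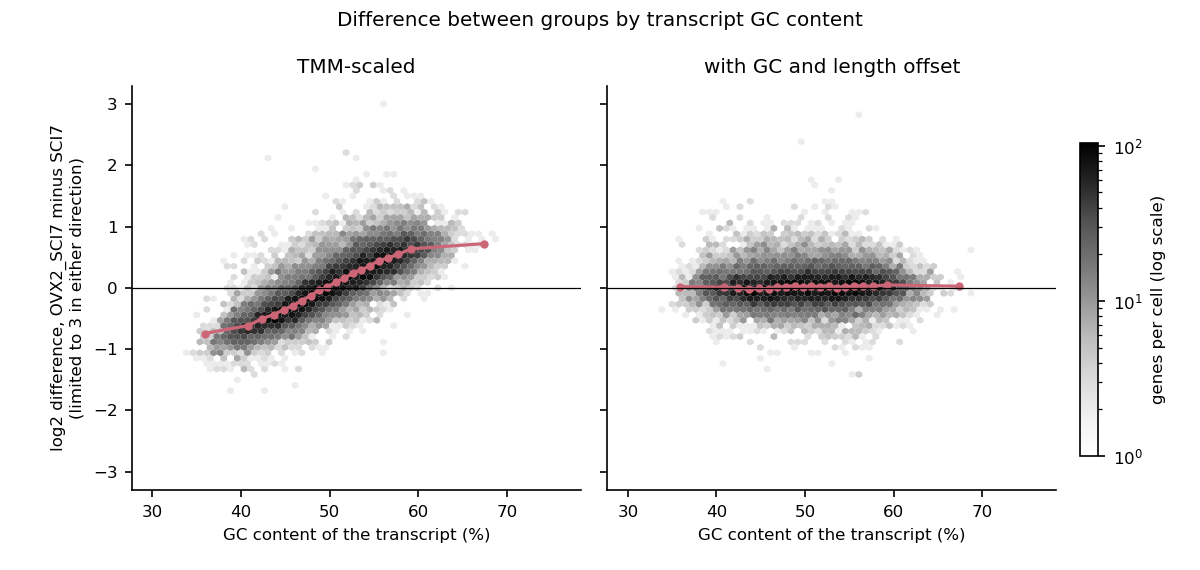
Log2 difference between OVX2_SCI7 and SCI7 of each protein-coding gene against the GC content of its transcript, as TMM-scaled (left) and with the GC and length offset (right); grey shading is the number of genes, the line joins medians of 20 equal groups of genes. The medians climb with GC content on the left (rho 0.788) and are flat on the right (rho 0.030).

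Short coding stretches show what the difference in composition looks like. The 4 below are 60 bases long, each from 1 coding exon of the GENCODE M21 transcript (GRCm38, an older build than that of the counts), picked as the first stretch whose GC share is closest to that of the whole transcript, with G and C in capitals. Acsl4, an acyl-CoA synthetase that loads polyunsaturated fatty acids into membranes, and Hdac2, a class I histone deacetylase, are AT-rich and lay lower after ovariectomy. Hdac5, a class II histone deacetylase, and Esrra, an orphan receptor that drives mitochondrial genes, are GC-rich and lay higher.
Acsl4: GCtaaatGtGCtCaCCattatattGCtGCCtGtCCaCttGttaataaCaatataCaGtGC
Hdac2: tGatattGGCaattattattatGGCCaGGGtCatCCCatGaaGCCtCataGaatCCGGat
Hdac5: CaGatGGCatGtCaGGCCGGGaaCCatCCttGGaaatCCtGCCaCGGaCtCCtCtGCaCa
Esrra: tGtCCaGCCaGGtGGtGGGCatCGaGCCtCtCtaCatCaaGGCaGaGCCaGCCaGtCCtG
They lie at chrX:142351659-142351718 (minus strand, exon 3), chr10:36985128-36985187 (plus, exon 2), chr11:102218431-102218490 (minus, exon 3) and chr19:6920327-6920386 (minus, exon 2). The whole transcripts are 39.0, 41.9, 58.8 and 61.8% GC.

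Acsl4 stood at 66.3, 63.1, 62.0 and 62.7 CPM in SCI7 and 42.2, 32.1, 34.1 and 35.6 CPM in OVX2_SCI7. The SCI7 libraries agreed closely and every OVX2_SCI7 library lay below them, a difference of -0.82 ± 0.14. Hdac2 stood at 99.3, 85.1, 79.9 and 77.99 CPM in SCI7 and 64.6, 53.7, 58.4 and 55.9 CPM in OVX2_SCI7, and Hdac5 at 67.7, 61.3, 78.5 and 73.5 CPM in SCI7 and 97.6, 139.9, 127 and 126 CPM in OVX2_SCI7. Both separated, in opposite directions, by -0.56 ± 0.13 and 0.80 ± 0.16. An offset that removes each library's own trend on GC content and length before the test took Acsl4 to -0.02 ± 0.13 and Hdac2 to 0.00 ± 0.09, while Hdac5 kept 0.30 ± 0.10 and its groups still did not overlap. Where a result below has a value with the offset, it is this one. Any difference that follows GC content is removed by it, whatever its source.

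With the offset, 606 genes (3.4%) were above SCI7 in every OVX2_SCI7 library and 272 (1.53%) below. Of the 1091 genes above without it, 269 stayed above, 24.7% of that list and 44.4% of the list with the offset. Of the 1123 below, 159 stayed below, 14.2% and 58.5% of the lists. The quasi-likelihood test with the offset called 8 genes, all higher (0.0449% of 17821), and none lower (0%). Unadjusted p-values under 0.05 dropped to 1935 genes. The 8 are Oas2, Xaf1 and Ifi27 of the interferon list, H2-Q4 and H2-Q6 of the MHC class I list, Cd8a of the T cell list, and Gbp3 and Lgals3bp, which are on no list. H2-Q4 and H2-Q6 belong to a gene family of similar members, between some of which reads are hard to assign. Without OVX2_SCI7 replicate 1 the test with the offset called 388 genes, 234 higher and 154 lower, among them all 8, and without replicate 2 it called none. Replicate 1 is the library of its group nearest to SCI7, so the larger count without it is no support.

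Lgals3bp, a secreted galectin-binding glycoprotein, stood at 92.4, 92.2, 49.2 and 89.3 CPM in SCI7 and 153, 253, 305 and 339.9 CPM in OVX2_SCI7. All OVX2_SCI7 libraries, replicate 1 included, lay above SCI7, and the difference was 1.70 ± 0.26, or 1.26 ± 0.17 with the offset. Gbp3, a guanylate-binding GTPase of cell-autonomous defence, stood at 21.3, 16.2, 11.5 and 14.7 CPM in SCI7 and 27.1, 27.3, 26.2 and 32.6 CPM in OVX2_SCI7, a difference of 0.83 ± 0.18 that the offset took to 1.11 ± 0.15. Interferon target promoters carry a repeat of GAAA to which interferon regulatory factors bind, and the string GAAA, any 2 bases (NN), GAAA was searched on both strands of the RefSeq promoters (GRCm38.p6, 250 bases before to 50 after the start). It was found in 3.44% of 32851 promoters, in 8 of 14 interferon list genes with an entry, and in 1 of 6 of the genes called with the offset, Gbp3. Matches overlap in places and are a description of the letters, not of binding. The windows below show the first such place in 5 interferon list promoters, with the matches in capitals, 5′ to 3′ on the gene's strand, where a match on the other strand reads TTTC, 2 bases, TTTC.
Isg15: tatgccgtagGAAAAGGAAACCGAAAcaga
Oas1a: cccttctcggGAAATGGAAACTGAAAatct
Ifit1: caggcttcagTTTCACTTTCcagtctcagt
Ifit3: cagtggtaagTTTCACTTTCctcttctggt
Stat2: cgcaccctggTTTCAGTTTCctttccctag
They lie at chr4:156200877-156200906 and chr5:120907526-120907555 on the minus strand and at chr19:34640775-34640804, chr19:34583363-34583392 and chr10:128270266-128270295 on the plus strand. The Gbp3 promoter (chr3:142559794-142560093, plus strand) is given whole, with both matches, which overlap, in capitals.
Gbp3: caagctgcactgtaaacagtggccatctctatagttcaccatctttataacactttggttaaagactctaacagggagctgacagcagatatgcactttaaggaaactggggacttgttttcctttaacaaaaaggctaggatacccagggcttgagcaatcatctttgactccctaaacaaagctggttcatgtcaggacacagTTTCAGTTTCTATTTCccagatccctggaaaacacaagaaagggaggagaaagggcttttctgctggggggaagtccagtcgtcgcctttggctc

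Outside the interferon and MHC lists, the genes with the smallest p that lay higher were Slamf8, Lgals3bp, Bcl2l1, Klf13, Oas1g, Znfx1, Ifi27l2a, Zbtb16, Clec3b and Plekhf1. At least Oas1g, Ifi27l2a and Znfx1 are themselves known as antiviral or interferon-linked genes, as the lists do not hold every such gene. Slamf8, a surface receptor of myeloid cells, stood at 0.792, 0.537, 0.654 and 0.404 CPM in SCI7 and 1.696, 3.39, 2.25 and 3.63 CPM in OVX2_SCI7, with all OVX2_SCI7 libraries above. It passed the low-count filter with the help of libraries where it is high, so its rank is no support and no size is given. Bcl2l1, which encodes the survival factor Bcl-xL, stood at 65.2, 73.8, 65.8 and 77.7 CPM in SCI7 and 105, 118, 116 and 138 CPM in OVX2_SCI7. That is a tight and modest separation of 0.76 ± 0.12, with 0.36 ± 0.11 left under the offset. Klf13, a Krüppel-like repressor of transcription, differed by 0.72 ± 0.12 and kept 0.41 ± 0.10. Clec3b, the plasminogen-binding protein tetranectin, stood at 6.13, 6.82, 5.34 and 3.63 CPM in SCI7 and 8.85, 18.8, 28.2 and 21.9 CPM in OVX2_SCI7, lowest in replicate 1 of OVX2_SCI7. Its difference of 1.83 ± 0.33 was reduced to 0.96 ± 0.21 by the offset. Plekhf1, an endosomal protein, differed by 0.78 ± 0.14 and kept 0.55 ± 0.12. All 10 separated with and without the offset.

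The 10 lower genes with the smallest p were Zfp820, Pter, Myef2, Acsl4, Klhl23, Acvr2a, Ranbp3l, Phf6, Celf2 and Calcrl. Myef2, a repressor of the myelin basic protein promoter, stood at 93.2, 94.3, 90.8 and 90.002 CPM in SCI7 and 68.8, 54.5, 53.9 and 53.96 CPM in OVX2_SCI7. Calcrl, the receptor for calcitonin gene-related peptide and adrenomedullin, stood at 51.2, 57.6, 39.9 and 47.95 CPM in SCI7 and 26.2, 15.2, 25.2 and 22.1 CPM in OVX2_SCI7. Acvr2a, an activin type II receptor, stood at 35.02, 35.6, 41.9 and 25.2 CPM in SCI7 and 21.1, 13.7, 15.1 and 12.5 CPM in OVX2_SCI7. In each the highest OVX2_SCI7 library was still below the lowest of SCI7. With the offset their differences went from -0.67 to -0.19, from -1.15 to -0.26 and from -1.14 to -0.41. Klhl23, an adaptor of ubiquitin ligases, was the only one of the 10 whose groups still did not overlap, at 37.3, 37.2, 34.5 and 34.7 CPM in SCI7 and 26.6, 19.7, 19.03 and 20.5 CPM in OVX2_SCI7, with -0.29 ± 0.07 under the offset.

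A separate ranking with the offset gave lower genes that the first ranking missed. Rhbdl2, a rhomboid protease, stood at 2.17, 2.42, 1.64 and 2.62 CPM in SCI7 and 1.06, 0.975, 0.7504 and 1.19 CPM in OVX2_SCI7, a difference of -1.15 ± 0.25 that became -1.40 ± 0.26. Papss2, which makes the sulfate donor used for proteoglycans, stood at 82.2, 80.03, 65.9 and 79.7 CPM in SCI7 and 50.2, 36.2, 42.6 and 47.4 CPM in OVX2_SCI7, with -0.51 ± 0.11 under the offset. C1ql3, a secreted synaptic C1q-like protein, had -1.26 ± 0.27 and Arhgap6, a GTPase activator, -0.83 ± 0.19. Nr2f1 (COUP-TFI) changed sides, from 0.25 ± 0.18 to -0.36 ± 0.08. Among the higher genes of that ranking, Lpcat2, which makes platelet-activating factor in leukocytes and microglia, stood at 52.1, 44.96, 34.4 and 48.1 CPM in SCI7 and 63.3, 54.8, 61.4 and 57.6 CPM in OVX2_SCI7, with 0.40 ± 0.14 and 0.61 ± 0.10. Cox7c and Gbp7 overlapped in CPM, at 0.46 ± 0.20 and 0.19 ± 0.16, and separated at 1.01 ± 0.17 and 0.82 ± 0.14 with the offset.

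**Figure D2:**
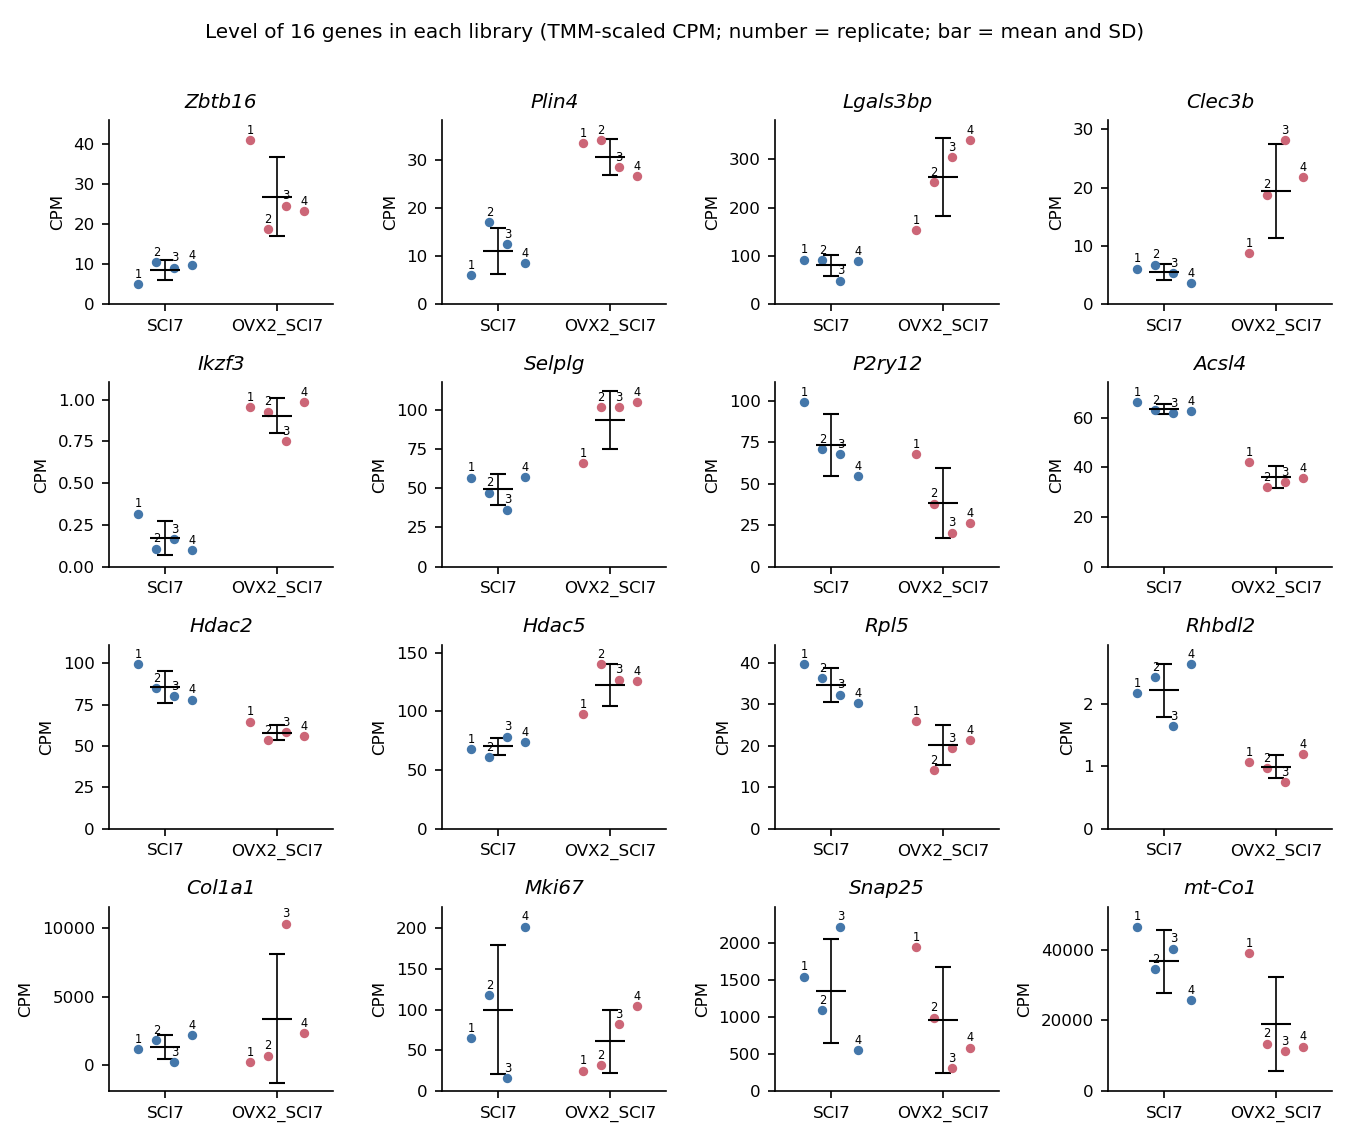
TMM-scaled CPM of 16 genes in each of the 8 libraries (points, numbered by replicate), with the mean and SD of each group of 4. Zbtb16, Plin4, Lgals3bp, Clec3b, Ikzf3, Selplg, Acsl4, Hdac2, Hdac5, Rpl5 and Rhbdl2 do not overlap between groups, while P2ry12, Col1a1, Mki67, Snap25 and mt-Co1 do.

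The 72 gene lists fall into 8 classes, and 50 of them had a median above 0. With the offset 18 changed sign and 47 came closer to 0. Their medians, as TMM-scaled, had a Spearman rho of 0.515 with the median GC content of their genes, and 0.079 with the offset. The 72 lists had 82 of 1104 tested entries above and 36 below, and with the offset 60 and 11. Over all genes tested the shares were 6.12% above and 6.3% below, and with the offset 3.4% and 1.53%. Over the 199 tested entries of the 15 immune lists, 33 lay above and 0 below, and with the offset 36 and 1. Most of those above came from 2 lists, interferon with 13 and MHC class I with 6, and with the offset 15 and 8. In the 9 lists of nucleus and division the balance was 2 above and 20 below of 159, and with the offset 6 and 2. Without OVX2_SCI7 replicate 1 the medians were 1.41 for T and NK cells, 0.98 for phagocytic cells, 0.94 for lipid genes, 0.48 for nuclear oxidative phosphorylation, -1.58 for mitochondrial transcripts and -0.65 for KRAB zinc finger factors. As that library lay nearest to SCI7, leaving it out widens the contrast, and these medians are no support. The T and NK cell list has a further limit, given below. The 12 lists of neurons had 2 above and 2 below of 194.

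**Figure D3:**
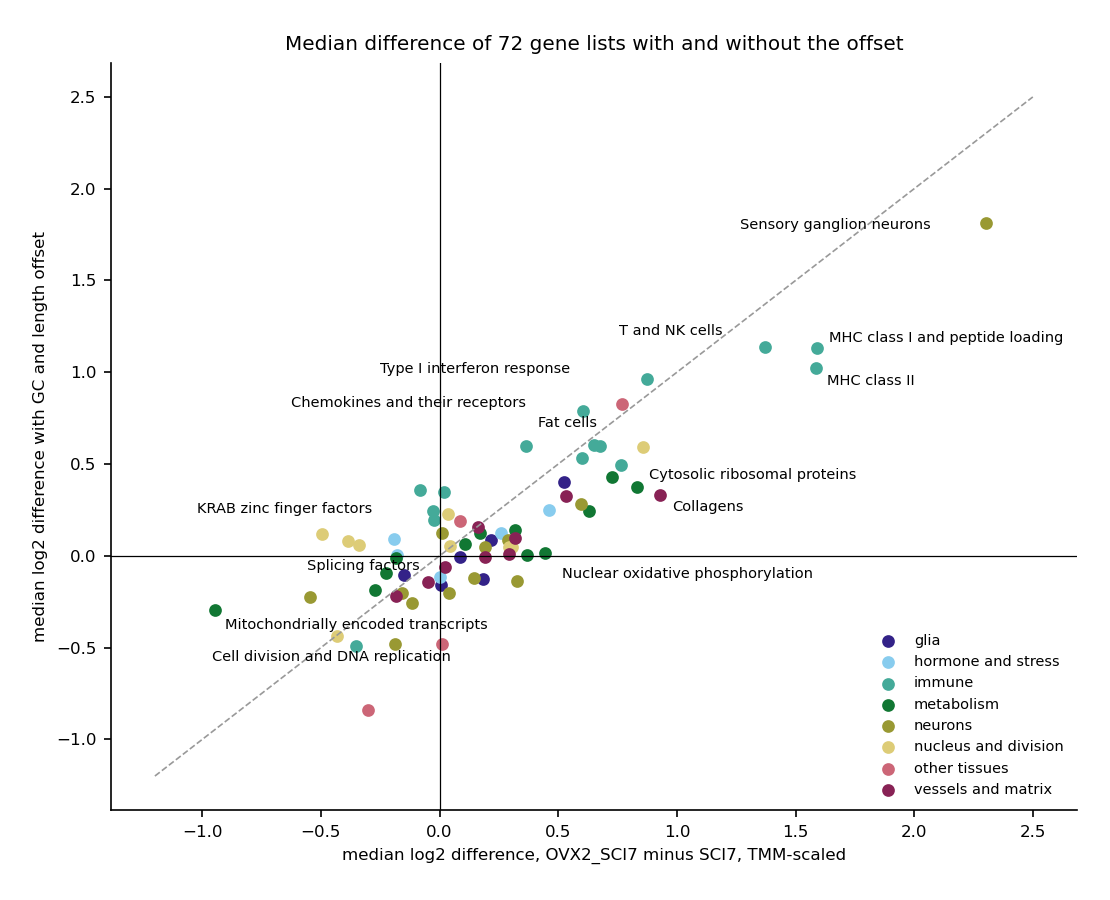
Median log2 difference of each of 72 gene lists as TMM-scaled (x axis) and with the GC and length offset (y axis), coloured by class; the dashed line marks equal values. Interferon (0.87 and 0.96) and T and NK cell genes (1.37 and 1.14) stay near the line, and nuclear oxidative phosphorylation (0.44 and 0.01), KRAB zinc finger factors (-0.50 and 0.12) and splicing factors (-0.39 and 0.08) move to near 0 on the y axis. The T and NK cell median covers 10 of 18 members, some of which passed the low-count filter through libraries where they are high, so it does not stand for the list.

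**Figure D4:**
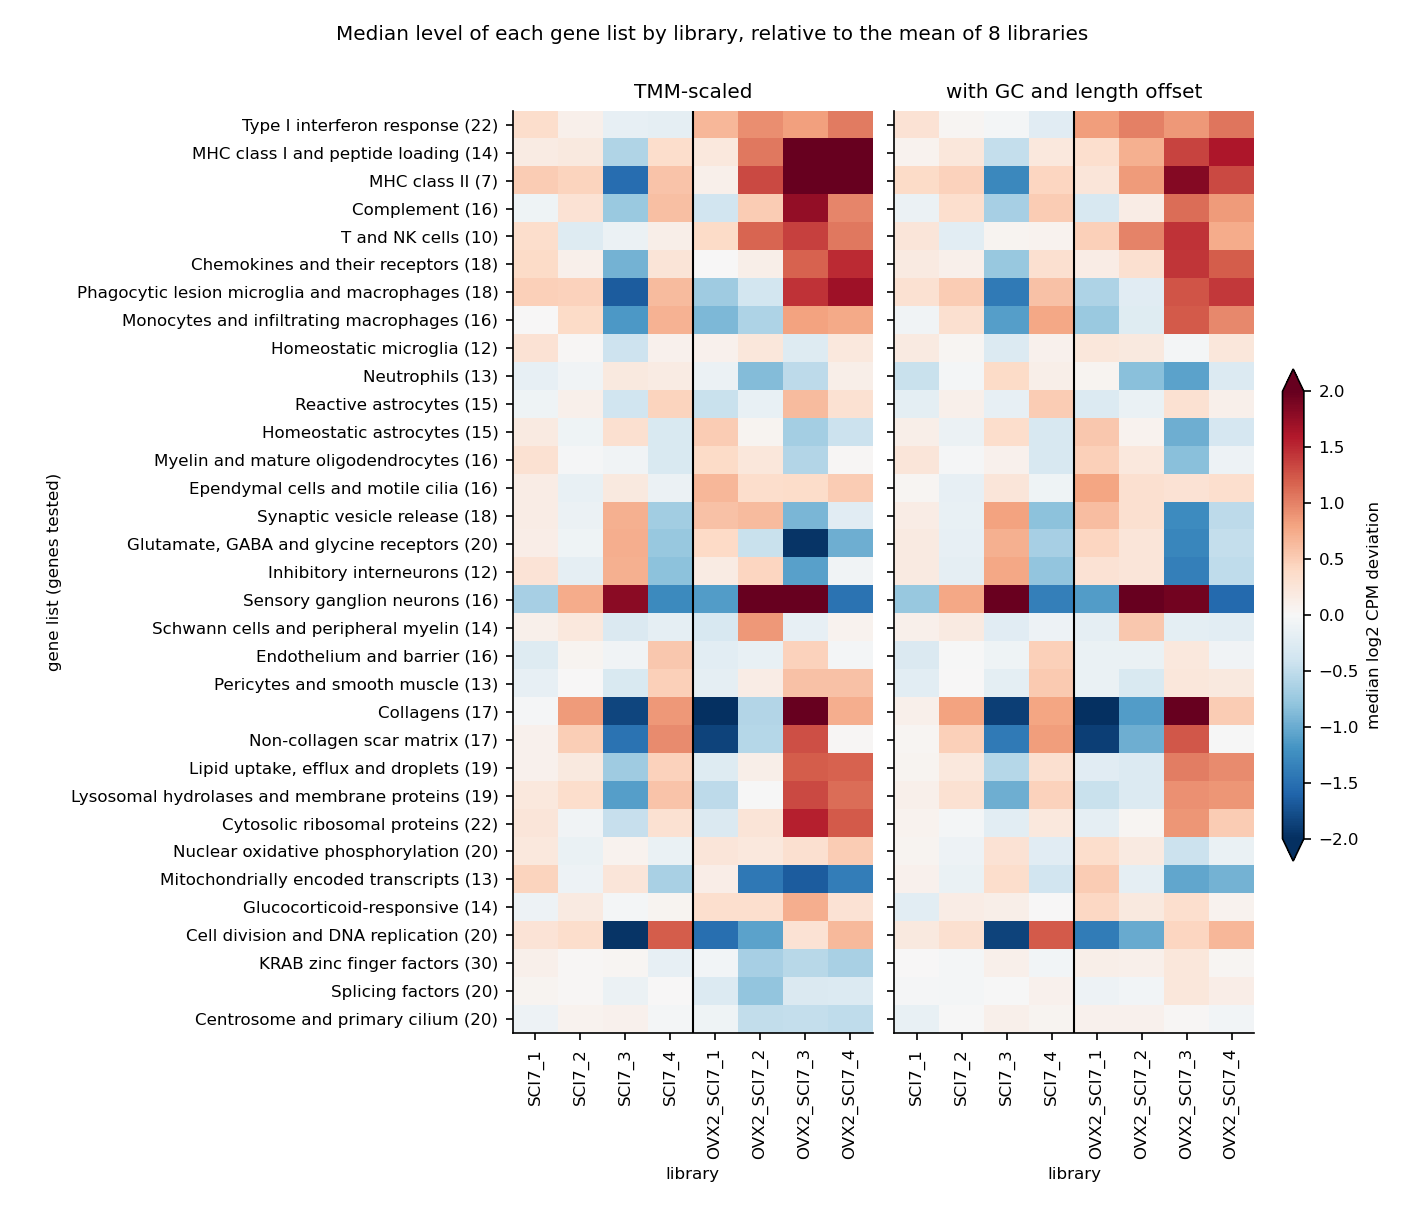
Median log2 CPM deviation of 33 gene lists in each library from the mean of the SCI7 libraries, as TMM-scaled (left) and with the GC and length offset (right). Red is above and blue below the SCI7 mean, and colours end at 2 in either direction. The heading in the picture names the mean of the 8, but the values are relative to SCI7. Interferon genes are red in all 4 OVX2_SCI7 libraries, and collagen, phagocyte and cell division genes are blue in SCI7 replicate 3 and OVX2_SCI7 replicate 1.

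Lymphocyte transcripts were sparse. Cd8a, the coreceptor of cytotoxic T cells, had raw counts of 2, 0, 1 and 1 in SCI7 and 15, 18, 23 and 15 in OVX2_SCI7, and it is 1 of the 8 genes called with the offset. Its SCI7 counts lie below the low-count filter, which it passed through libraries where it is high, so the call is no support and no size is given. Every OVX2_SCI7 library, replicate 1 included, lay above SCI7. Ikzf3, a lymphocyte transcription factor, had raw counts of 6, 2, 3 and 2 in SCI7 and 18, 20, 14 and 19 in OVX2_SCI7 and did not overlap between groups on either scale, with the same limit. Cd3e, part of the T cell receptor complex, had 2, 3, 4 and 8 in SCI7 and 13, 13, 14 and 7 in OVX2_SCI7 and overlapped. Of 10 tested genes of T and NK cells, 4 separated upward and 0 downward, with a median of 1.37 (1.14 with the offset). The other 8 were too low to be tested, so the members tested are those detected in at least 1 group and do not stand for the list. The summed level of the 10 tested genes, with the same limit, was 4.36 to 7.92 CPM in SCI7 and 8.91 to 19.03 in OVX2_SCI7. Cd4, named after its values were seen, had raw counts of 22, 27, 4 and 35 in SCI7 and 12, 36, 132 and 65 in OVX2_SCI7 and was lowest in the replicates 3 of SCI7 and 1 of OVX2_SCI7. Genes of B and plasma cells had a median of 0.60 (0.53 with the offset) over 6 tested, with Ighm, the heavy chain of IgM, at 17.9, 14.2, 12.4 and 7.82 CPM in SCI7 and 25.2, 28.8, 16.7 and 17.6 CPM in OVX2_SCI7. For dendritic and mast cells it was 0.36 (0.60 with the offset) over 7. Batf3, needed for cross-presenting dendritic cells, stood at 0.475, 0.537, 0.5998 and 0.656 CPM in SCI7 and 0.901, 1.44, 2.36 and 2.23 CPM in OVX2_SCI7 and separated on either scale. It too passed the low-count filter with the help of libraries where it is high, so the separation is no support.

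The interferon-induced T cell attractant Cxcl9 stood at 0.951, 0.967, 0.436 and 0.101 CPM in SCI7 and 2.44, 1.81, 3.91 and 4.15 CPM in OVX2_SCI7. Its raw counts were 18, 18, 8 and 2 in SCI7 and 46, 39, 73 and 80 in OVX2_SCI7. Ccl5, also a T cell attractant, stood at 0.792, 0.806, 0.109 and 0.454 CPM in SCI7 and 1.06, 3.06, 3.75 and 2.49 CPM in OVX2_SCI7. Its raw counts were 15, 15, 2 and 9 in SCI7 and 20, 66, 70 and 48 in OVX2_SCI7. Both passed the low-count filter through libraries where they are high, so no size is given. With that limit, both separated on either scale. Ccl2, the main monocyte attractant, stood at 9.98, 5.16, 1.25 and 11.8 CPM in SCI7 and 1.06, 2.51, 3.64 and 19.6 CPM in OVX2_SCI7, and the groups overlapped across nearly their whole range. Over 18 chemokines and receptors the median was 0.60 (0.79 with the offset), with 2 above and 0 below, and 4 and 0 with the offset.

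Microglia and macrophage genes did not lie on one side. Among 12 genes of homeostatic microglia the median was -0.02 (0.19 with the offset), with 2 above and 0 below. P2ry12, the purinergic receptor lost by activated microglia, stood at 99.1, 71.01, 67.6 and 54.6 CPM in SCI7 and 67.7, 38.01, 20.5 and 26.2 CPM in OVX2_SCI7, lower in replicates 2 to 4 of OVX2_SCI7 than in any SCI7 library, with -0.94 ± 0.32 shrinking to -0.21 under the offset. Selplg, the selectin ligand, stood at 56.6, 47.2, 36.3 and 57.04 CPM in SCI7 and 66.1, 102, 102 and 105 CPM in OVX2_SCI7 and Csf1r, the receptor for the microglial growth factor CSF1, at 374, 367, 245 and 395 CPM in SCI7 and 413, 530.1, 590.2 and 552 CPM in OVX2_SCI7. These last separated upward on either scale, by 0.92 ± 0.19 and 0.59 ± 0.18, or 0.35 and 0.31 with the offset.

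Genes of phagocytic lesion cells had a higher median, 0.68 (0.60 with the offset), over 18 genes, of which 1 separated. Apoe, the lipid carrier of foamy phagocytes, stood at 3537, 3636, 1789.7 and 4647 CPM in SCI7 and 3047, 6899.9, 22264 and 16528 CPM in OVX2_SCI7. Trem2, a lipid-sensing receptor, stood at 101, 107, 28.3 and 132 CPM in SCI7 and 66.2, 135, 445 and 435 CPM in OVX2_SCI7. In both, SCI7 replicate 3 was the lowest of its group and OVX2_SCI7 replicates 3 and 4 were several times above replicate 1. Per-library medians, here and below, are of deviations from each gene's mean over the SCI7 libraries. For this list they were 0.47, 0.47, -1.66 and 0.63 in SCI7 and -0.72, -0.36, 1.45 and 1.69 in OVX2_SCI7. Cst7, a cystatin of activated microglia, was the 1 that separated, at 15.95, 11.2, 4.31 and 10.4 CPM in SCI7 and 18.9, 23.1, 18.2 and 30.6 CPM in OVX2_SCI7, and it overlapped with the offset (1.00). Genes of infiltrating monocytes and macrophages had a median of -0.03 (0.25 with the offset) over 16, and none separated. Ccr2, the monocyte chemokine receptor, stood at 11.5, 14.1, 6.27 and 14.2 CPM in SCI7 and 6.89, 4.59, 19.6 and 11.5 CPM in OVX2_SCI7.

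Complement genes had a median of 0.77 (0.49 with the offset) over 16. C3, the central component, stood at 132, 176, 179.6 and 168 CPM in SCI7 and 279, 357, 169 and 275 CPM in OVX2_SCI7, with OVX2_SCI7 replicate 3 inside the SCI7 range. C4b, the upstream component, stood at 265, 314, 328 and 358 CPM in SCI7 and 432, 597, 416 and 471 CPM in OVX2_SCI7 and was the 1 that separated, by 0.60 ± 0.17, but it overlapped with the offset (0.28). Fc receptor genes had a median of 0.65 (0.60 with the offset) over 9 and none separated, with Fcer1g, their shared signalling chain, at 102, 92.5, 23.2 and 116 CPM in SCI7 and 41.1, 48.8, 213 and 222 CPM in OVX2_SCI7. Toll-like receptors and adaptors had 0.02 (0.35 with the offset) over 16. Tlr9, the sensor of unmethylated DNA, separated on either scale at 6.497, 7.25, 4.25 and 8.03 CPM in SCI7 and 9.06, 13.4, 18.5 and 12.6 CPM in OVX2_SCI7, a difference of 1.04 ± 0.24. Genes of the interleukin 1 family and inflammasome had -0.08 (0.36 with the offset) over 15, none separating. Il1b itself stood at 1.27, 1.18, 0.327 and 1.67 CPM in SCI7 and 0.954, 0.928, 5.41 and 0.674 CPM in OVX2_SCI7, with 1 high value in OVX2_SCI7 replicate 3. Neutrophil genes had a negative median, -0.35 (-0.49 with the offset) over 13. S100a8, a calprotectin subunit, stood at 12.3, 11.7, 15.7 and 15.1 CPM in SCI7 and 10.2, 4.59, 9.81 and 15.2 CPM in OVX2_SCI7 and overlapped, and Csf3r, the G-CSF receptor, separated upward at 33.2, 37.1, 23.8 and 43.6 CPM in SCI7 and 44.5, 60.5, 77.8 and 51.8 CPM in OVX2_SCI7 and overlapped with the offset (0.77 and 0.47). With the offset 0 of the neutrophil genes lay above and 1 below, Mpo, myeloperoxidase, at -1.44 ± 0.49.

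Glial classes had small medians. Reactive astrocyte genes had 0.18 (-0.13 with the offset) over 15, with none separating, and Gfap differed by 0.22 ± 0.23, or -0.13 ± 0.25 with the offset. Homeostatic astrocyte genes had -0.15 (-0.10 with the offset) over 15. Aqp4, the water channel of astrocyte endfeet, stood at 2872, 2512, 2168 and 1759 CPM in SCI7 and 2782, 1474, 609 and 1153 CPM in OVX2_SCI7, high in replicate 1 of OVX2_SCI7 and low in replicate 3. Gja1, connexin 43, stood at 778, 619, 723 and 541 CPM in SCI7 and 591, 487, 491 and 399 CPM in OVX2_SCI7. Myelin genes had 0.08 (-0.01 with the offset) over 16. Mbp stood at 11203, 8856, 9859.8 and 9003 CPM in SCI7 and 15201, 16982, 7999 and 11674 CPM in OVX2_SCI7 and overlapped, 0.41 ± 0.26. Precursor genes had 0.00 (-0.16 with the offset) over 14, with Lhfpl3 at -0.79 ± 0.27 and Sox6 at -0.61 ± 0.21, which the offset took to -0.26 and -0.34.

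Ependymal cells, which line the central canal and carry motile cilia, had the most separated members of the 6 glial lists. Of 16 genes, 5 separated upward and 0 downward, with a median of 0.52 (0.40 with the offset). With the offset 1 separated. Foxj1, the master factor of motile cilia, stood at 18.4, 14.6, 19.6 and 19.2 CPM in SCI7 and 26.6, 41.8, 25.8 and 34.7 CPM in OVX2_SCI7, a difference of 0.84 ± 0.21 and 0.21 ± 0.17 with the offset, where it overlapped. The per-library medians of the list were 0.15, -0.15, 0.19 and -0.11 in SCI7 and 0.66, 0.36, 0.37 and 0.51 in OVX2_SCI7, so replicate 1 was the highest rather than the lowest of its group.

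Genes of synapses and axons differed several-fold between libraries of the same group. Snap25, a core protein of synaptic vesicle release, stood at 1549, 1094, 2229 and 553 CPM in SCI7 and 1953, 996, 312 and 589 CPM in OVX2_SCI7. Synaptic vesicle genes had a median of 0.15 (-0.12 with the offset) over 18, with none separating on either side. The per-library medians were 0.15, -0.12, 0.72 and -0.69 in SCI7 and 0.59, 0.63, -0.92 and -0.23 in OVX2_SCI7, highest in SCI7 replicate 3 and lowest in OVX2_SCI7 replicate 3. Neurofilament and cytoskeletal genes had 0.29 (0.08 with the offset) over 16, and Nefl, the light neurofilament, stood at 906, 721, 1173 and 440.3 CPM in SCI7 and 1665, 1463, 371 and 708 CPM in OVX2_SCI7.

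Glutamate, GABA and glycine receptor genes had -0.55 (-0.22 with the offset) over 20, -1.06 without OVX2_SCI7 replicate 1, and none separated. Gria2, the AMPA receptor subunit that blocks calcium entry, stood at 149.96, 123, 215 and 78.1 CPM in SCI7 and 98.8, 71.01, 32.1 and 46.9 CPM in OVX2_SCI7, with -1.19 ± 0.34 reduced to -0.29 by the offset. Glra3, a glycine receptor subunit of pain circuits in the dorsal horn, stood at 20.4, 14.6, 34.03 and 7.72 CPM in SCI7 and 11.03, 6.73, 2.36 and 4.09 CPM in OVX2_SCI7, with -1.66 ± 0.47 and -0.78 ± 0.37. Potassium channel genes had -0.16 (-0.20 with the offset) over 20, and sodium and calcium channel genes 0.04 (-0.20 with the offset) over 17. Scn3a, a sodium channel, differed by -1.18 ± 0.34 and Cacna2d1, the gabapentin-binding calcium channel subunit, by -0.98 ± 0.29, which the offset took to -0.62 and -0.23.

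Inhibitory interneuron genes had -0.12 (-0.26 with the offset) over 12, with Slc32a1, the vesicular GABA and glycine transporter, at 54.4, 42.9, 84.7 and 31.8 CPM in SCI7 and 88.4, 110.2, 39.3 and 74.5 CPM in OVX2_SCI7. Excitatory neuron genes had -0.19 (-0.48 with the offset) over 12. Ebf2, a transcription factor, stood at 20.97, 15.9, 32.6 and 10.2 CPM in SCI7 and 4.40, 11.1, 5.52 and 5.702 CPM in OVX2_SCI7, a difference of -1.57 ± 0.35 and -1.17 ± 0.38 with the offset. Cholinergic motor neuron genes had 0.60 (0.28 with the offset) over 12. Chat, the acetylcholine-making enzyme, stood at 8.24, 7.25, 14.1 and 5.199 CPM in SCI7 and 20.8, 13.1, 0.7504 and 6.48 CPM in OVX2_SCI7, so OVX2_SCI7 held both the highest and the lowest library. Tns1 separated upward (0.70 ± 0.19) and overlapped with the offset (0.34). It is also a widespread adhesion protein.

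Sensory ganglion neurons sit outside the cord, in the dorsal root ganglia, and their transcripts reached these libraries unevenly. Scn10a, the nociceptor sodium channel Nav1.8, stood at 0.0528, 4.73, 11.2 and 0 CPM in SCI7 and 0.0530, 93.5, 13.5 and 0.0518 CPM in OVX2_SCI7. Pirt, a membrane protein of nearly all ganglion neurons, stood at 0.317, 7.31, 19.1 and 0.353 CPM in SCI7 and 0.424, 128, 22.2 and 0.467 CPM in OVX2_SCI7. Avil, advillin, stood at 0.528, 5.91, 11.2 and 0.656 CPM in SCI7 and 0.742, 105, 22.5 and 1.14 CPM in OVX2_SCI7. The same 4 libraries were high in each: replicates 2 and 3 of SCI7 and replicates 2 and 3 of OVX2_SCI7, with replicate 2 of OVX2_SCI7 far above the rest. Trpv1, Mrgprd, P2rx3 and Prdm12, receptors and a transcription factor of pain and itch neurons, reached 25.5, 10.6, 28.7 and 15.3 CPM in OVX2_SCI7 replicate 2 and at most 6.49 CPM in any other library. The median difference of the 16 genes was 2.30 (1.81 with the offset), with none separating. Summed, the list stood at 304, 279, 513 and 204 CPM in SCI7 and 409, 1746, 459 and 341 CPM in OVX2_SCI7.

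Other ganglion list members were also highest in that library, some with a clear level in every library. Prph, peripherin, stood at 25.6, 21.2, 41.7 and 12.01 CPM in SCI7 and 35.5, 226, 55.7 and 31.8 CPM in OVX2_SCI7. Tubb3, neuronal tubulin, stood at 216, 175, 293 and 165 CPM in SCI7 and 319, 808, 265 and 293 CPM in OVX2_SCI7. Calca, the precursor of calcitonin gene-related peptide, stood at 17.9, 20.2, 47.3 and 8.38 CPM in SCI7 and 28.6, 128, 27.01 and 2.85 CPM in OVX2_SCI7, and Tac1, the substance P precursor, at 28.8, 18.5, 28.7 and 8.28 CPM in SCI7 and 6.36, 29.3, 6.75 and 6.48 CPM in OVX2_SCI7. Calcb, Isl2, Scn11a and Scn9a stood at 10.9, 16.99, 51.9 and 38.7 CPM in replicate 2 of OVX2_SCI7, each the highest of the 8 libraries. Peripheral myelin was highest in the same library, as the summed Schwann cell list stood at 2393, 2015, 1521 and 1460.5 CPM in SCI7 and 1672, 2928, 1396 and 1718 CPM in OVX2_SCI7. The part of ganglion or root tissue in other differences was not tested. Without replicate 2 the median of the ganglion list was 0.30, and those of the interferon, T and NK cell, ependymal and phagocyte lists were 0.86, 1.29, 0.59 and 0.95. The T and NK cell value keeps the limit of its tested members given above.

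**Figure D5:**
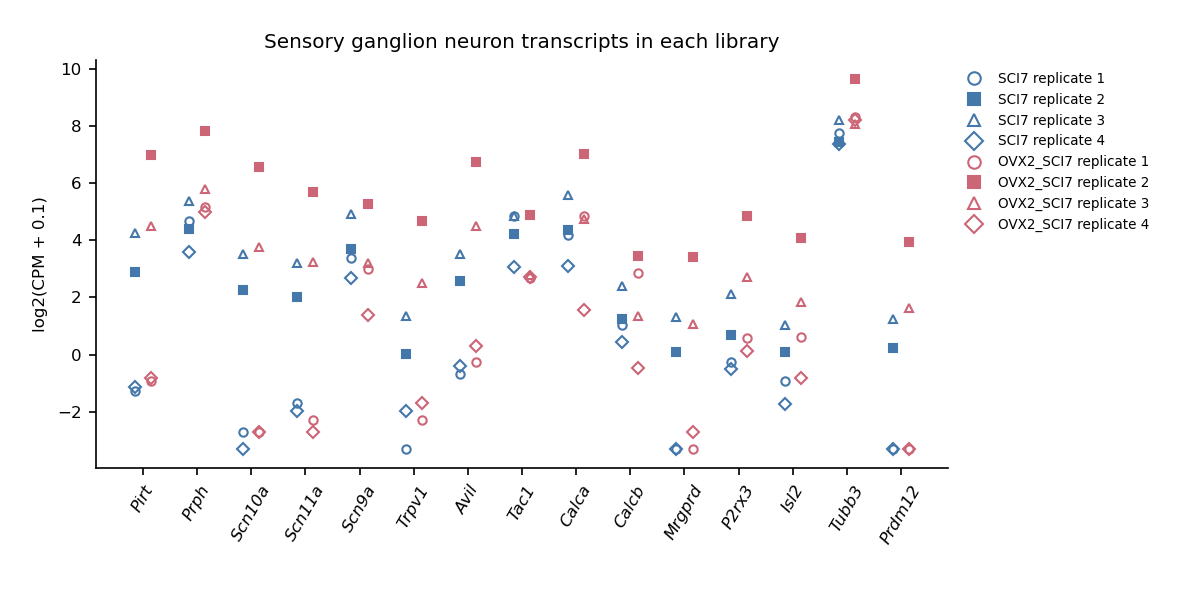
Level of 15 of the 16 sensory ganglion neuron genes in each library, as log2 of TMM-scaled CPM plus 0.1; blue is SCI7, red is OVX2_SCI7, symbols mark the replicates and replicate 2 is filled. OVX2_SCI7 replicate 2 is the highest library for all 15 shown, and most genes also stand well above the floor in SCI7 replicates 2 and 3 and OVX2_SCI7 replicate 3.

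Genes of axon growth gave mixed values. Sox11, a factor of growing neurons, separated downward at 16.01, 14.1, 19.8 and 12.5 CPM in SCI7 and 10.7, 10.95, 6.16 and 9.23 CPM in OVX2_SCI7, a difference of -0.75 ± 0.21 and -0.48 ± 0.19 with the offset, where the groups overlapped. Atf3, induced in injured neurons, stood at 35.2, 26.6, 25.2 and 32.3 CPM in SCI7 and 16.8, 54.2, 56.5 and 82.0 CPM in OVX2_SCI7, and Jun, its partner, at 67.4, 62.5, 56.5 and 78.6 CPM in SCI7 and 66.2, 115, 155 and 129 CPM in OVX2_SCI7. In both, replicate 1 of OVX2_SCI7 lay within or below SCI7 and the other 3 at or above its top. The regeneration list had a median of 0.33 (-0.14 with the offset) over 15. Axon guidance genes had 0.19 (0.05 with the offset) over 20. Sema4d, a semaphorin of oligodendrocytes and lymphocytes, separated upward at 176, 169, 115 and 146 CPM in SCI7 and 236, 295, 196 and 243 CPM in OVX2_SCI7, and Unc5c, a netrin receptor, downward, at -0.74 ± 0.17. Both overlapped with the offset, where they stood at 0.46 and -0.33. Neurotrophic genes had 0.01 (0.12 with the offset) over 16, with Bdnf at 10.5, 8.59, 10.8 and 4.24 CPM in SCI7 and 4.72, 6.82, 3.48 and 3.73 CPM in OVX2_SCI7.

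Collagen genes had the widest spread between libraries of the 72 lists after the sensory ganglion list. Col1a1, the main fibrillar collagen chain, stood at 1128, 1777, 189 and 2169.6 CPM in SCI7 and 189, 668, 10340.2 and 2319.9 CPM in OVX2_SCI7. Fn1, fibronectin, stood at 673, 1449, 276 and 2113 CPM in SCI7 and 241, 573, 2372 and 1244 CPM in OVX2_SCI7. OVX2_SCI7 thus held the lowest and the highest libraries, replicates 1 and 3, and SCI7 replicate 3 was level with the lowest. The collagen list had per-library medians of -0.02, 0.85, -1.83 and 0.86 in SCI7 and -2.32, -0.59, 2.47 and 0.73 in OVX2_SCI7, and its overall median was 0.93 (0.33 with the offset) over 17, with none separating. Non-collagen matrix genes had -0.05 (-0.14 with the offset) over 17. Matrix proteases and inhibitors had 0.16 (0.16 with the offset) over 15, with Mmp15, a membrane protease, upward at 0.77 ± 0.21, and at 0.23 with overlap under the offset. Fibroblast and meningeal genes had 0.53 (0.33 with the offset) over 13. Dpt, dermatopontin, separated on either scale at 6.603, 8.06, 7.63 and 5.603 CPM in SCI7 and 8.64, 8.12, 13.1 and 10.5 CPM in OVX2_SCI7, a difference of 0.53 ± 0.24.

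Vessel genes were near level. Endothelial genes had 0.02 (-0.06 with the offset) over 16, with Pecam1 at 39.4, 47.3, 34.5 and 91.4 CPM in SCI7 and 42.6, 36.4, 70.6 and 49.5 CPM in OVX2_SCI7. Slc2a1, the glucose transporter of the blood-brain barrier, separated upward at 151, 179, 184 and 207 CPM in SCI7 and 305, 263, 214 and 230.4 CPM in OVX2_SCI7, by 0.49 ± 0.15, and overlapped with the offset. Mural cell genes had 0.29 (0.01 with the offset) over 13, 3 above. Integrins and laminins had 0.32 (0.10 with the offset) over 19, with the fibronectin and vitronectin receptor chain Itgav at -0.86 ± 0.22 and the laminin chain Lama5 at 0.80 ± 0.29, or -0.39 and 0.28 with the offset. Neither separated. TGF-beta genes had 0.19 (-0.01 with the offset) over 18. Tgfb2 and the transducer Smad2 separated downward, at -0.54 ± 0.14 and -0.40 ± 0.11, and with the offset they stood at -0.29 and 0.00. Proteoglycan genes had -0.18 (-0.22 with the offset) over 16, with Acan, aggrecan, at 0.25 ± 0.19. Despite the negative median, 2 lay above and 0 below, and with the offset 0 and 0. Bcan differed by 0.64 ± 0.23, with overlap between the groups, and by 0.05 ± 0.23 with the offset.

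Across 19 genes of lipid uptake, efflux and droplets the median was 0.73 (0.43 with the offset). Plin4, a lipid droplet coat protein of fat and muscle, stood at 6.13, 17.2, 12.6 and 8.58 CPM in SCI7 and 33.6, 34.3, 28.5 and 26.7 CPM in OVX2_SCI7, with replicate 1 level with its group, a difference of 1.47 ± 0.29 and 1.15 ± 0.28 with the offset, separated on either scale. Pnpla2, the triglyceride lipase, stood at 27.05, 25.2, 23.4 and 33.7 CPM in SCI7 and 31.8, 50.2, 76.9 and 49.2 CPM in OVX2_SCI7, a difference of 0.93 ± 0.22. Fat cell genes, of which 4 of 10 could be tested and which share Plin4, had 0.77 (0.83 with the offset), and Lipe, hormone-sensitive lipase, separated at 11.7, 12.6, 14.9 and 17.2 CPM in SCI7 and 18.1, 29.1, 25.3 and 21.3 CPM in OVX2_SCI7 and overlapped with the offset (0.73 and 0.35). The adipocyte hormones Adipoq, Lep and Retn did not pass the low-count filter. The sum of the 4 tested genes alone stood at 30.7, 42.9, 30.2 and 48.4 CPM in SCI7 and 54.02, 66.8, 95.5 and 88.7 CPM in OVX2_SCI7. Cholesterol synthesis genes had -0.23 (-0.09 with the offset) over 18. Lysosomal genes had 0.63 (0.24 with the offset) over 19, none separating.

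Energy genes differed by genome. Transcripts of the mitochondrial genome made up 9.35, 7.06, 8.76 and 5.35% of counts in SCI7 and 8.33, 3.13, 2.36 and 2.84% in OVX2_SCI7. Replicates 2 to 4 after ovariectomy lay below every SCI7 library and replicate 1 inside their range. The difference of means was -3.46 percentage points (two-sided exact permutation p = 0.0857, and 0.152 adjusted over 4 library measures). The 13 mitochondrial transcripts had a median of -0.95 (-0.30 with the offset), and their GC content is low, with a median of 37.1%. mt-Co1, a cytochrome oxidase subunit, stood at 46514, 34492, 40266 and 25648 CPM in SCI7 and 38916, 13382, 11302 and 12589 CPM in OVX2_SCI7. The nuclear genes of the same machinery had the opposite sign, 0.44 (0.01 with the offset) over 20, with 5 above and 0 below. Ndufs7 of complex I stood at 30.6, 23.96, 29.99 and 26.9 CPM in SCI7 and 35.7, 46.9, 45.3 and 52.5 CPM in OVX2_SCI7, a difference of 0.69 ± 0.17 that the offset took to -0.01 ± 0.17. Glycolysis genes had 0.37 (0.01 with the offset) over 17.

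Cytosolic ribosomal protein genes had 0.83 (0.38 with the offset) over 22, 0 above and 1 below. Rplp0, a stalk protein, stood at 398, 333, 184 and 466 CPM in SCI7 and 219, 399.8, 1029 and 694 CPM in OVX2_SCI7, with OVX2_SCI7 replicates 3 and 4 high. The 1 below was Rpl5, a protein of the large subunit that also binds Mdm2, at 39.6, 36.3, 32.3 and 30.2 CPM in SCI7 and 25.9, 14.2, 19.5 and 21.3 CPM in OVX2_SCI7, a difference of -0.77 ± 0.17 and -0.34 ± 0.10 with the offset, where it still separated. Counts of such genes can be shared with processed copies elsewhere in the genome, so single members are uncertain. Proteasome genes had 0.10 (0.06 with the offset) over 18, with 1 above and 3 below. Unfolded protein response genes had 0.17 (0.12 with the offset) over 18, and Herpud1, of the degradation complex in the endoplasmic reticulum, separated upward by 0.44 ± 0.12 and overlapped with the offset. Chaperone genes had 0.32 (0.14 with the offset) over 14, with 4 above, and 2 above with the offset. Cryab, a small heat shock protein of oligodendrocytes and astrocytes, separated at 192, 141, 134 and 144 CPM in SCI7 and 223, 283, 202 and 299.8 CPM in OVX2_SCI7 and overlapped with the offset (0.72 and 0.32).

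Iron and ferroptosis genes had -0.19 (-0.01 with the offset) over 16. Hmox1, the haem-degrading enzyme, stood at 179, 221, 35.5 and 530.2 CPM in SCI7 and 27.6, 46.1, 130.5 and 328 CPM in OVX2_SCI7, and its highest and lowest SCI7 libraries were replicates 4 and 3. Slc7a11, the cystine importer, stood at 73.4, 121, 89.8 and 123 CPM in SCI7 and 53.2, 45.6, 58.8 and 73.7 CPM in OVX2_SCI7, with -0.82 ± 0.21 and -0.10 ± 0.25 under the offset. NRF2 target genes had -0.27 (-0.18 with the offset) over 14. Keap1, the repressor of NRF2, stood at 38.2, 37.4, 38.4 and 42.1 CPM in SCI7 and 41.8, 66.1, 69.7 and 65.6 CPM in OVX2_SCI7, with replicate 1 of OVX2_SCI7 inside the SCI7 range.

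Oestrogen receptor genes were low and close between the groups. Esr1, the main oestrogen receptor, stood at 8.13, 12.1, 11.7 and 5.55 CPM in SCI7 and 6.94, 7.52, 8.47 and 5.96 CPM in OVX2_SCI7, a difference of -0.38 ± 0.25 and 0.01 ± 0.23 with the offset. Esr2 had raw counts of 2, 3, 4 and 1 in SCI7 and 3, 10, 1 and 0 in OVX2_SCI7 and did not pass the low-count filter, so a difference was not detectable at this depth. Pgr, the progesterone receptor and a classic oestrogen target, stood at 14.3, 11.9, 19.8 and 6.26 CPM in SCI7 and 15.4, 9.61, 2.79 and 7.62 CPM in OVX2_SCI7, lowest in the neuron-poor replicate 3 of OVX2_SCI7, a difference of -0.56 ± 0.44. The list of receptors and cofactors had -0.18 (0.00 with the offset) over 13, with 1 above and 1 below. The 1 above was Esrra, at 19.6, 18.7, 21.8 and 19.8 CPM in SCI7 and 30.1, 38.7, 49.7 and 53.3 CPM in OVX2_SCI7, a difference of 1.10 ± 0.21 that became 0.42 with the offset, where the groups overlapped. The 1 below was Nrip1, a corepressor of nuclear receptors, at 41.4, 45.5, 42.3 and 43.97 CPM in SCI7 and 32.2, 31.5, 30.3 and 29.6 CPM in OVX2_SCI7, a difference of -0.49 ± 0.11 and 0.00 ± 0.11 with the offset. Steroid synthesis genes had -0.19 (0.09 with the offset) over 10. Star, the cholesterol carrier of steroid-making cells, stood at 17.6, 20.7, 22.03 and 13.98 CPM in SCI7 and 25.4, 16.3, 7.88 and 19.3 CPM in OVX2_SCI7. Cyp7b1, which hydroxylates oxysterols and neurosteroids, separated downward, at -0.57 ± 0.18 and stood at -0.09 with the offset.

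Glucocorticoid-responsive genes were higher in part. Zbtb16, a zinc finger repressor induced by glucocorticoids, stood at 5.02, 10.6, 9.16 and 9.74 CPM in SCI7 and 40.98, 18.7, 24.6 and 23.2 CPM in OVX2_SCI7. All OVX2_SCI7 libraries lay above SCI7 and replicate 1 was the highest of the 8, with a difference of 1.64 ± 0.29 and 1.47 ± 0.33 with the offset. Fkbp5, the chaperone that damps the glucocorticoid receptor, stood at 30.1, 45.2, 33.4 and 50.3 CPM in SCI7 and 49.6, 51.9, 184 and 84.95 CPM in OVX2_SCI7, a difference of 1.22 ± 0.37 and 1.09 ± 0.36. Ddit4, an inhibitor of mTOR signalling, separated at 51.9, 53.98, 63.6 and 59.3 CPM in SCI7 and 71.2, 102, 154 and 109.8 CPM in OVX2_SCI7, with 0.93 ± 0.20, and 0.33 ± 0.17 with overlap under the offset. Of 14 genes of the list 4 separated upward and 1 downward, 3 and 0 with the offset, and the median was 0.46 (0.25 with the offset). The list was made with earlier results of these data known. Immediate early genes had 0.26 (0.12 with the offset) over 16, with Jund at 54.5, 48.6, 46.9 and 53.1 CPM in SCI7 and 54.7, 139.9, 165 and 121 CPM in OVX2_SCI7 and Fos at 31.01, 32.1, 24.3 and 41.2 CPM in SCI7 and 21.5, 21.3, 55.96 and 28.6 CPM in OVX2_SCI7. Clock genes had 0.00 (-0.12 with the offset) over 16. Per1, which is both a clock and a glucocorticoid-responsive gene, stood at 35.4, 54.9, 43.03 and 59.4 CPM in SCI7 and 56.9, 95.1, 114 and 74.9 CPM in OVX2_SCI7, and Dbp, a clock output gene, at 12.1, 15.04, 14.8 and 13.6 CPM in SCI7 and 15.9, 20.1, 23.2 and 16.6 CPM in OVX2_SCI7. Jund and Dbp separated as TMM-scaled, at 1.24 and 0.45, and with the offset they overlapped, at 0.40 and -0.24.

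Mki67, the proliferation antigen, stood at 65.02, 117, 15.9 and 202 CPM in SCI7 and 25.02, 31.8, 81.95 and 105 CPM in OVX2_SCI7, and the list had per-library medians of 0.27, 0.35, -1.95 and 1.21 in SCI7 and -1.51, -1.07, 0.29 and 0.64 in OVX2_SCI7. Its median difference was -0.43 (-0.44 with the offset) over 20, with none separating. Without OVX2_SCI7 replicate 1 it was -0.15. Replication-dependent histone genes, whose transcripts lack a poly(A) tail, had 0.31 (0.05 with the offset) over 9. H2bc4 differed by 0.84 ± 0.24 and 0.97 ± 0.18, and members of this family are too alike for single values to be certain. The Bcl2 family had 0.29 (0.05 with the offset) over 16, with Bcl2 at -0.24 ± 0.15 beside the separated Bcl2l1 above.

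Nuclear regulators had medians that moved with base composition. KRAB zinc finger genes, repressors of transposable elements with a median GC content of 40.7%, had a median of -0.50 over 30, 0 above and 6 below. With the offset the median was 0.12, with 3 above and 0 below. Zfp26 stood at 36.4, 39.2, 34.6 and 33.97 CPM in SCI7 and 26.6, 13.8, 19.3 and 16.5 CPM in OVX2_SCI7, a difference of -0.92 ± 0.19 and -0.25 ± 0.16 with the offset. Splicing factor genes had -0.39 over 20, 8 below, and 0.08 with 2 below under the offset. Srsf1 stood at 268, 250.3, 222 and 232 CPM in SCI7 and 178, 107, 154 and 154 CPM in OVX2_SCI7, going from -0.71 ± 0.16 to -0.04 ± 0.13, and Srsf10 kept a separation at -0.28 ± 0.10. Centrosome and cilium genes had -0.34 and 0.06 over 20, with 3 and 0 below. Chromatin regulators had 0.04 (0.05 with the offset) over 22, the list that holds the opposed Hdac2 and Hdac5. Long non-coding RNAs had 0.04 (0.23 with the offset) over 17, and Malat1 stood at 616, 1692, 1409 and 1566 CPM in SCI7 and 1076, 1006, 1087 and 1027 CPM in OVX2_SCI7. The few RNAs without a poly(A) tail had 0.86 over 5. Only 1 of them has a GC value, so the offset removed a trend from that 1 alone, and the list median with it was 0.59. Their sum, nearly all from the ribosomal RNA entry Rn18s-rs5, was 548, 837, 571 and 678 CPM in SCI7 and 559.7, 1599, 1131 and 1616 CPM in OVX2_SCI7, and its part in other differences was not tested.

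Tissues that can enter a dissection were checked by the same means. Skeletal muscle genes had 0.01 (-0.48 with the offset) over 15, with a sum of 23.3 to 59.2 CPM in SCI7 and 37.5 to 47.8 CPM in OVX2_SCI7. Red blood cell genes had -0.30 (-0.84 with the offset) over 9. Bone and cartilage genes, listed because ovariectomy causes bone loss, had 0.09 (0.19 with the offset) over 13. Ibsp, bone sialoprotein, stood at 6.76, 0.806, 0.982 and 3.38 CPM in SCI7 and 1.06, 1.62, 10.8 and 0.518 CPM in OVX2_SCI7, a spread that followed neither group. Tnfrsf11b, osteoprotegerin, separated downward at 10.4, 12.1, 12.98 and 11.4 CPM in SCI7 and 6.52, 9.14, 10.3 and 8.45 CPM in OVX2_SCI7 and stood at 0.04 with the offset.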

How the data were processed

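Bulk RNA-seq of 12 cord samples was deposited as 1 table of expected counts and 1 of TPM per gene. Per the submitters' processing notes, fastp 0.23.4, HISAT2 2.2.1, RSEM 1.3.3, DESeq2 1.42.0, edgeR and limma were used with GRCm39; their roles, the kit, RNA selection and strand are not given in the sources used here. The expected counts made by the authors with RSEM need not be whole (11.0% of values were not) and were rounded. The TPM values, also the authors', were used for marker levels and 1 alternative test. Each table lists 57180 genes, of which 525 have no symbol, and 6 columns of these tables match no sample and were not used.

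Genes were filtered with filterByExpr, scaled by TMM and tested with edgeR 4.0.16 (robust quasi-likelihood, R 4.3.3, Benjamini-Hochberg over all genes tested), in 1 fit over 12 libraries so that all share the estimate of spread. The offset removes, per library, a natural spline with 5 degrees of freedom on transcript GC content and log2 length, fitted over genes of at least 5 CPM on average. GC content and length come from GENCODE M21 (GRCm38), which held 51884 of the gene IDs. Alternatives used limma 3.58.1 and DESeq2 1.42.0, other scalings and filters, a replicate block, and libraries left out in turn. Fits were tested on simulated data.

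The members and gene lists were chosen with earlier results of these data known. Genes named are the 10 smallest p-values in each direction outside the interferon and MHC lists, and the 8 smallest with the offset, and for each list its first tested gene and the 2 with the smallest p, with the whole ganglion list and a few fixed markers. Predicted genes and those under 1 CPM were left out of the rankings. A few items are not reported here. Cd4 and the genes called with the offset were added after their values were seen. Libraries within a group differed by far more than sampling noise, so none was counted as a duplicate. P-values measure the spread between these samples.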

Additional observations from a re-analysis of the deposited data

Results flagged for a closer look

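Single libraries stood far from the other 3 of their group, by Dixon's ratio above its critical value for 4 samples, in 13 of 128 genes in OVX2_SCI7 and 2 of 128 in SCI7, in 5 of 72 and 2 of 72 list medians, and in 3 of 16 and 0 of 16 library measures. Chance marks about 1 in 20 groups, and genes of 1 library are not independent.

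OVX2_SCI7 replicate 1 stood apart in its mitochondrial share, 8.33% of counts, and 8.81% relative to protein-coding counts. It was also highest in the median of mitochondrial transcripts, 0.14 against -1.67 to -1.38 in the other 3, and in mt-Co1, 38916 CPM against 11302 to 13382 CPM in the other 3. The centrosome and cilium median was -0.080 against -0.51 to -0.47 in the other 3. Myef2 was highest there at 68.8 CPM against 53.9 to 54.5 CPM in the other 3, and Smad2 at 44.4 CPM against 36.9 to 38.1 CPM in the other 3. Keap1 was lowest there at 41.8 CPM against 65.6 to 69.7 CPM in the other 3, as was Selplg at 66.1 CPM against 102 to 105 CPM in the other 3.

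OVX2_SCI7 replicate 2 had a summed ganglion level of 1746 CPM, against 341 to 459 in the other 3 of its group. The ganglion genes Scn10a (93.5 CPM), Prph (226 CPM), Tubb3 (808 CPM) and Tac1 (29.3 CPM) were highest there. Its splicing factor median was the lowest, -0.79 against -0.30 to -0.28 in the other 3.

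OVX2_SCI7 replicate 3 had the highest glucocorticoid list median, 0.73 against 0.29 to 0.34 in the other 3, and the lowest B and plasma cell median, 0.28 against 0.58 to 0.61 in the other 3. Cd8a was highest there at 1.23 CPM against 0.777 to 0.835 CPM in the other 3, Il1b at 5.41 CPM against 0.674 to 0.954 CPM in the other 3 and Ibsp at 10.8 CPM against 0.518 to 1.62 CPM in the other 3. Ccl2 was highest in OVX2_SCI7 replicate 4, at 19.6 CPM against 1.06 to 3.64 CPM in the other 3. In SCI7 replicate 3 the medians of MHC class II, -1.52 against 0.44 to 0.57 in the other 3, and of phagocytic cells, -1.66 against 0.47 to 0.63 in the other 3, were the lowest, as were Lgals3bp at 49.2 CPM against 89.3 to 92.4 CPM in the other 3 and Papss2 at 65.9 CPM against 79.7 to 82.2 CPM in the other 3.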

How the results depend on the processing

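Genes passing at an adjusted p of 0.05 numbered 0 by quasi-likelihood and 0 with DESeq2's size factors. In the main quasi-likelihood test many genes shared the smallest adjusted value, which lay just above the threshold. The number of genes passing was 2 with upper-quartile scaling, 14 with no low-count filter and 1148 with a stricter filter, for which the cause was not tested. It was 3706 with DESeq2, 705 with limma-voom, 9679 with its quality weights and 16 with limma-trend on log2(TPM + 1). It was 2 with the 8 libraries alone, 720 with protein-coding nuclear genes only, 8 with the GC and length offset and 5 with a GC offset. With that first offset it was 388 without OVX2_SCI7 replicate 1 and 0 without replicate 2. It was 7139 without OVX2_SCI7 replicates 1 and 2 together. Leaving out 1 library at a time gave 0 to 6264, the highest without OVX2_SCI7 replicate 1, with 1 without SCI7 replicate 4, 4 without OVX8_SCI7 replicate 1 and 0 without each of the others. The 8 libraries alone with the offset, an alternative chosen after seeing the data, gave 2, both lower, and none of the 244 genes chosen by the naming rule passed. The 2 with the 8 libraries alone and no offset were also both lower, while the 8 with the offset over 12 libraries were all higher.

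The replicate block gave 0 genes, and 0 with the GC and length offset. The labels give no shared animal or day behind the numbers, and deviations of same-numbered libraries correlated at 0.070, -0.28, -0.63 and 0.50. None of the 4 SCI7 libraries correlated best with its own number.

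The libraries' difference in GC trend was 0.893 and stayed positive, at 0.792 to 1.123 with each of the 8 libraries left out in turn, where the exact permutation p ran from 0.0286 to 0.0857. It was 0.939 over genes of at least 5 CPM (p = 0.0571, exact). The mitochondrial share stayed lower in all 9 alternatives.

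Of 244 genes chosen by the naming rule, 30 had the other sign with the GC and length offset, and of 72 lists 18 did. Without OVX2_SCI7 replicate 3 alone it was 14 genes and 18 lists, and without replicates 1 and 2 together 14 and 16. It was 21 and 18 with voom's quality weights, 6 and 12 with limma-trend on TPM, 0 and 1 with DESeq2's size factors, and 0 and 0 with upper-quartile scaling. Depth limits single values of the sparse lymphocyte, ganglion and steroid receptor genes, and with 4 libraries a group the spread between animals limits the rest.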
